A study of Rattus norvegicus with 19 samples.

Results

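Prrt2 and Doc2a are the genes of the rat 16p11.2 interval whose proteins act at the presynaptic release site, and they were followed here together with the Doc2a paralog Doc2b and with Snap25, Stx1a, Vamp2, Syt1, Unc13a and Rims1, which lie outside the interval. The 9 genes were chosen by symbol, 9 of the 32623 genes in the files, and all 9 were among the 15440 genes with enough reads to be tested. RNA from the hippocampus of adult male Sprague Dawley rats was sequenced in 19 libraries. They comprised 6 wild-type (wt) rats with 2 copies of the interval, 4 Del/+ rats with 1 copy, 5 Dup/+ rats with 3 copies and 4 Del/Dup rats, in which a deleted and a duplicated chromosome together give 2 copies. The rats were littermates from crosses combining a deletion line and a duplication line, both made by CRISPR/Cas9 editing of fertilized embryos, so that the alleles are inherited and present throughout the body. Their age in weeks when tissue was taken is not given in the sources used here. The hippocampus was sequenced whole, so fewer cells of a type and less RNA per cell cannot be told apart.

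Fusion of a synaptic vesicle with the plasma membrane is driven by the SNARE complex, in which Vamp2 on the vesicle zippers with Stx1a and Snap25 on the target membrane. Unc13a opens and primes the complex at the active zone, where Rims1 tethers vesicles and calcium channels, and Syt1 is the fast calcium sensor that triggers fusion. Doc2a and Doc2b are soluble high-affinity calcium sensors linked to spontaneous and asynchronous release, and Prrt2 is a presynaptic membrane protein that binds SNARE proteins and regulates voltage-gated sodium channels. Loss-of-function variants of PRRT2 are a known cause of paroxysmal dyskinesia and benign infantile seizures.

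The Sult1a1 to Spn segment of rat chromosome 1 was rearranged with a pair of guide RNAs. Their targets are shown because they made both the deletion and the duplication of the segment that holds Prrt2 and Doc2a. The capitals mark the last 3 bases, which have the form NGG. Cas9 needs a motif of that form next to its target, but whether these bases are that motif was not tested. The study lists a guide for a Long Evans rat line with the letters of cr595 but for the first base. There the last 3 bases are part of the guide. Their positions were not matched to a genome here.
cr595: gcaatctcacgtgtctgaTGG
cr598: gtgacatcgtgaccctgcTGG

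In the RefSeq gene table of the GRCr8 assembly, which is not the assembly of the counts and served only for gene order, Doc2a lay next to Ino80e, Prrt2 lay between Pagr1 and Maz, and 11 protein-coding genes stood between Doc2a and Prrt2. The RefSeq promoter table matched 6 of the 9 genes, all but Doc2a, Doc2b and Snap25. The Prrt2 promoter is printed because Prrt2 carries the clearest changes, from 250 bases before to 50 bases after the transcript start, at chr1:191059129-191059428 of GRCr8 on the minus strand.
Prrt2 promoter: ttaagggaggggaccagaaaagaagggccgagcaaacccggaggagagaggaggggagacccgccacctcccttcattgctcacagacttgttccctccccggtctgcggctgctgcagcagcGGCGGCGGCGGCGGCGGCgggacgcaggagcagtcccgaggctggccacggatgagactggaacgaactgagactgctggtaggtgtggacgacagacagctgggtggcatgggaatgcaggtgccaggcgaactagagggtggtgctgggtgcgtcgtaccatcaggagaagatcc
The capitals mark a run of GGC triplets. The letters GGCGGCGGC, searched on both strands, had 4 overlapping matches there and occurred in 4.17% of the 33469 promoters of this length, and among the other 5 matched genes in Vamp2 alone. The GC box GGGCGG was not in the Prrt2 window and was in 33.1% of all promoters, while Stx1a had 4 matches, Vamp2, Syt1 and Rims1 3 each and Unc13a 2. The core TGACG of the cyclic AMP response element, found in 21.2% of all promoters, matched Vamp2 once and Unc13a 3 times and was not in the Prrt2 window. A match is a description of the letters only.

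The libraries held 16191192 to 38760645 reads in genes. They differed in the share of reads that aligned to more than 1 place, which was 40.1% to 47.6% in wt and 45.1% to 50.5% in Dup/+, but 57.8% to 70.7% in Del/Dup and 63.9% to 76.3% in Del/+ replicates 1 to 3, against 41.6% in Del/+ replicate 4. The share moves with genotype, and a fit with a term for a high share (over 55%) is given beside the values that it moved by over 1.5 times, turned in sign or took below the threshold. The label of wt replicate 5 gives wt in its description and Dup/+ in its genotype field. It was counted as wt, and its Prrt2 level lay within that of the other wt libraries. Its Doc2a level was the highest of the wt libraries and lay inside the Dup/+ range. Levels are given in CPM, a gene's reads relative to its library total after edgeR's TMM scaling of the totals, and p-values come from the quasi-likelihood F test of edgeR with Benjamini-Hochberg adjustment over all tested genes, with a call at an adjusted p under 0.05. SE is the standard error of a log2 fold change. Nothing beyond the genotype and replicate number separates the rats of a group in the labels, so the p-values measure the spread between these libraries.

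Prrt2 (ENSRNOG00000029366) was the only 1 of the 9 genes whose libraries separated all 4 genotypes. The share of all tested genes that do so was not computed. By pair, 4.94% of all genes did not overlap in Del/+ against wt, 1.17% in Dup/+ and 2.56% in Del/Dup. Between Del/+ and Dup/+ this share was 5.3%. In wt the level of Prrt2 ran from 153 CPM through a median of 157 to 170 CPM in the 6 libraries. The 4 Del/+ libraries gave 71.5, 75.1, 64.6 and 74.5 CPM, the 5 Dup/+ libraries 219, 215, 208, 196 and 207 CPM, and the 4 Del/Dup libraries 131, 145, 134 and 133 CPM. No group overlapped with another, and the order was Del/+, Del/Dup, wt and Dup/+ from low to high. The spread within a group was small, with a coefficient of variation of 4.15% in wt, 6.76% in Del/+, 4.26% in Dup/+ and 4.76% in Del/Dup.

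In Del/+, Prrt2 was at 44.9% of the wt mean (71.4 ± 4.83 CPM, SD, n = 4, against 159 ± 6.60 CPM, n = 6). It fell by 1.15 on the log2 scale (SE 0.0494, adjusted p = 4.47e-12). The 95% interval of the fold, 0.418 to 0.483, lay below the 0.5 of a level in proportion to copies. In Dup/+ the level was 132% of wt (209 ± 8.93 CPM, n = 5), and Prrt2 rose by 0.40 (SE 0.0442, adjusted p = 4.37e-05). Here the interval of the fold, 1.23 to 1.40, lay below the 1.5 of 3 copies against 2. With wt replicate 5, at 154 CPM, counted as Dup/+, the value was 0.32 and was not called (adjusted p = 0.101), while without that library the call was kept.

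In Del/Dup, which has as many copies as wt, Prrt2 stood at 85.4% of the wt mean (136 ± 6.47 CPM, n = 4). The 4 libraries lay below all 6 wt libraries, and the log2 difference was -0.23 (95% interval -0.33 to -0.13), but the test did not pass (adjusted p = 0.0713). DESeq2 on the same counts called it (adjusted p = 0.00329), as did edgeR without wt replicate 5 or without Del/Dup replicate 3, and with a term for the multi-mapped share the value was -0.14 (adjusted p = 0.577). All 4 Del/Dup libraries have a high share and no wt library does. Against Del/+, Prrt2 was higher in Del/Dup by 0.93 on the log2 scale (SE 0.0529, adjusted p = 7.18e-10), and by 0.95 (adjusted p = 0.000572) when only the 7 libraries of high multi-mapped share were compared, a setting chosen after seeing the data.

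Doc2a (ENSRNOG00000019920) also ran from low in Del/+ to high in Dup/+ but with a wider spread. It had 126 to 444 reads per library, against 1831 to 6377 for Prrt2. Its wt level ran from 7.53 through a median of 8.92 to 12.9 CPM. The Del/+ libraries gave 4.36, 7.26, 4.21 and 5.91 CPM, the Dup/+ libraries 18.3, 13.3, 17.7, 11.2 and 13.3 CPM, and the Del/Dup libraries 15.7, 10.1, 12.7 and 10.6 CPM. Each Del/+ library lay below each wt library, whereas Dup/+ and Del/Dup overlapped with wt, in particular with wt replicates 4 and 5 at 11.4 and 12.9 CPM. The coefficient of variation was 20.9% to 26.5% in the 4 groups.

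Against wt, Doc2a in Del/+ was at 56.2% of the mean (5.44 ± 1.44 CPM against 9.68 ± 2.05 CPM) and fell by 0.83 (SE 0.187, adjusted p = 0.0409), with an interval of the fold from 0.428 to 0.735 that holds 0.5. The call stood close to its threshold. It was lost when any of 11 of the 19 libraries was left out (wt replicates 2 to 6, Del/+ 1, 3 and 4, Dup/+ 5, Del/Dup 4 and 5), with an adjusted p up to 0.0951, and with the multi-mapped share in the fit (log2 fold change -0.70, adjusted p = 0.355). DESeq2 gave 9.59e-04. In Dup/+ the level was 153% of wt (14.8 ± 3.10 CPM), a log2 difference of 0.60 (SE 0.165) that was not called (adjusted p = 0.236) and whose fold interval of 1.20 to 1.93 held both the 1.5 of 3 copies and the value measured for Prrt2. In Del/Dup the value was 0.34 (95% interval -0.03 to 0.71, adjusted p = 0.339). It was 0.20 without Del/Dup replicate 2 and 0.52 with the term (adjusted p = 0.606).

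Doc2a was clearer between the groups that differ by 2 copies. From Dup/+ to Del/+ its log2 level fell by 1.44 (SE 0.194, adjusted p = 2.24e-04) and that of Prrt2 fell by 1.55 (SE 0.0515, adjusted p = 1.59e-14), and for both genes the groups did not overlap. With the term for the multi-mapped share the Doc2a value was -1.31 and the call was lost (adjusted p = 0.117). Against Del/+, Doc2a was higher in Del/Dup by 1.18 (SE 0.203, adjusted p = 0.00791), a call lost without Del/+ replicate 1, Del/+ replicate 3 or Del/Dup replicate 2 (adjusted p up to 0.0600). With the 7 libraries of high multi-mapped share alone the value was 1.22 and the call was lost (adjusted p = 0.121). A fit of the level on the number of copies over all 19 libraries gave a log2 slope per copy of 0.75 for Prrt2 (SE 0.0606, adjusted p = 2.28e-08) and 0.69 for Doc2a (SE 0.109, adjusted p = 0.00145), and both calls held in each of the alternatives run, each library left out included.

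**Figure D1:**
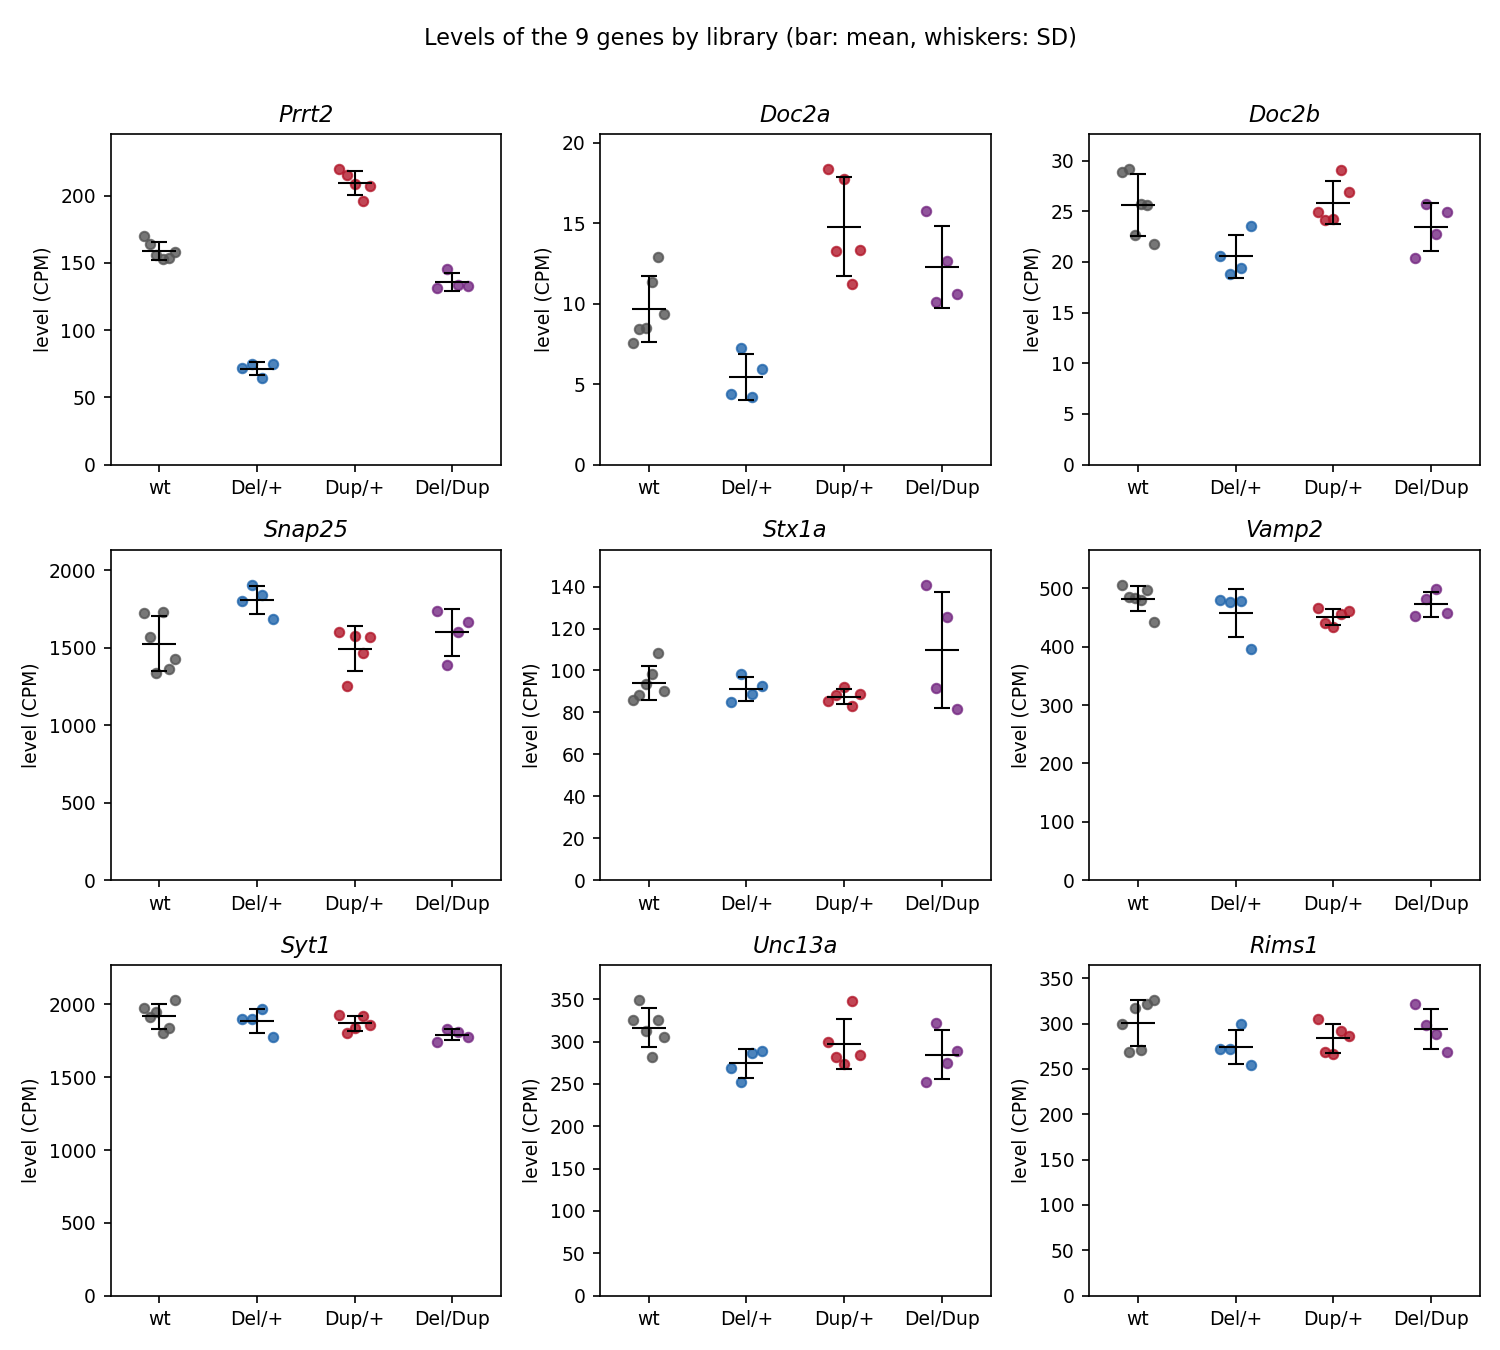
Level in CPM (y axis, from 0, a scale of its own in each panel) of the 9 genes in each library (points) of the 4 groups, with the mean (bar) and SD (whiskers). Prrt2 falls into 4 separate groups from 64.6 to 219 CPM, Doc2a is lowest in Del/+ and highest in Dup/+ with overlap between groups, and the other 7 genes overlap between wt and each carrier group.

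Of the 9 genes, 2 were called lower in Del/+ and 0 higher, where 0.771% of all tested genes passed, 0.466% lower and 0.304% higher. In Dup/+ 1 gene was called, higher, beside 0.272% of all genes, 0.214% higher and 0.0583% lower. In Del/Dup 0 were called by edgeR (4 at an unadjusted p under 0.05, where 16.2% of all genes passed, and 1 by DESeq2, which called 1.1% of all genes), beside 0.0907% of all genes, 0.0453% higher and 0.0453% lower. The calls between Del/+ and Dup/+ were 2 (0.784% of all genes), between Del/Dup and Del/+ also 2 (0.175%), and in the slope per copy also 2 (0.576%). All of them were Prrt2 or Doc2a. Counting genes whose libraries did not overlap, these were Prrt2 and Doc2a in Del/+ against wt, where 4.94% of all genes did not overlap, and Prrt2 alone in Dup/+ against wt (1.17%) and in Del/Dup against wt (2.56%). Between Del/+ and Dup/+, where 5.3% of all genes did not overlap, they were Prrt2, Doc2a, Doc2b and Snap25.

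**Figure D2:**
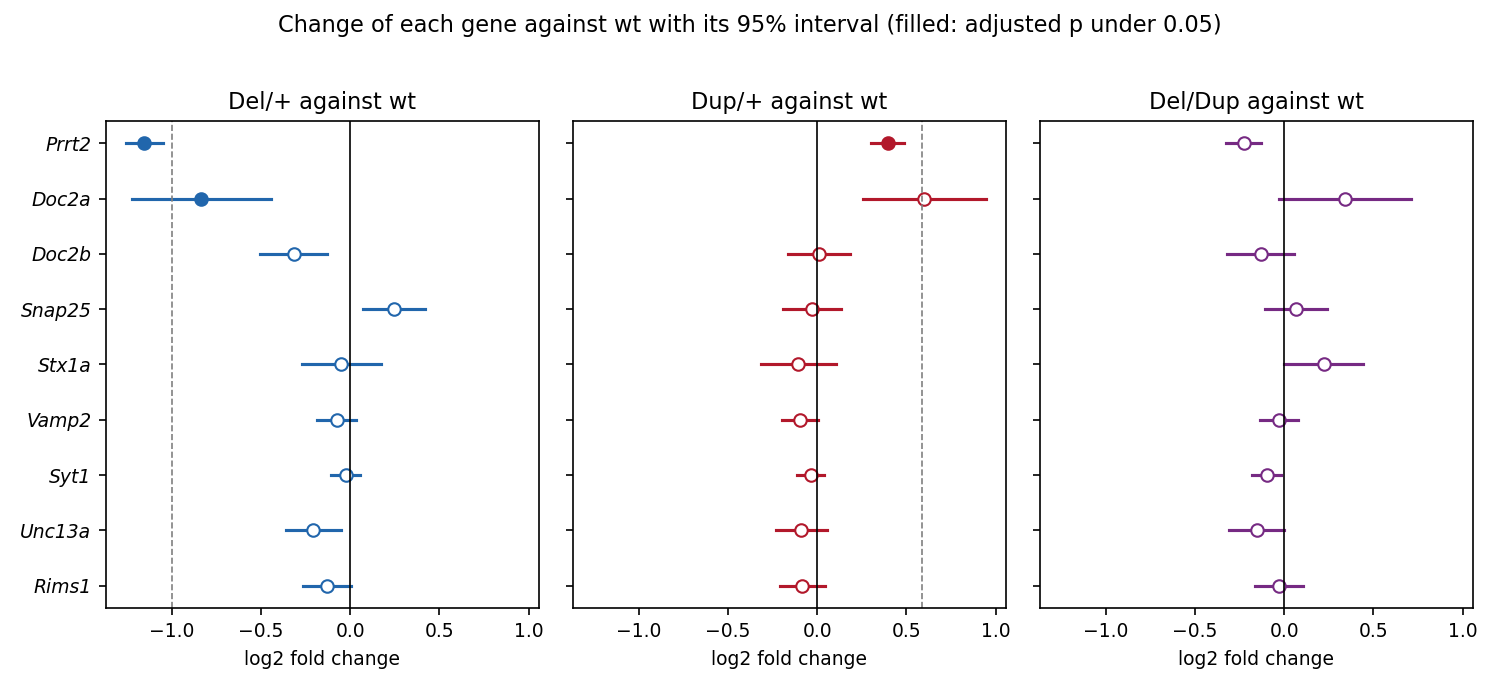
Log2 fold change against wt (x axis) with its 95% interval for the 9 genes in Del/+, Dup/+ and Del/Dup, filled where called, with dashed lines at the change in proportion to copies, -1 and 0.585. The Prrt2 interval misses the dashed line in Del/+ and in Dup/+, the Doc2a interval holds it in both, and the other 7 genes lie between -0.32 and 0.25.

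Prrt2 and Doc2a were then set beside the other genes of the interval, 28 of which were tested. In Del/+ the median log2 fold change of the other 26 was -1.01, and in the order from the strongest fall Prrt2 was number 5 and Doc2a number 27. In Dup/+ the median of the others was 0.53, and in the order from the lowest Prrt2 was number 4 and Doc2a number 20. In Del/Dup the median was -0.07, with Prrt2 again low at number 5 and Doc2a near the top at number 27. Prrt2 stood on the low side of the interval in each of the 3 carrier groups, and Doc2a on the high side. The 3 comparisons share the wt libraries.

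**Figure D3:**
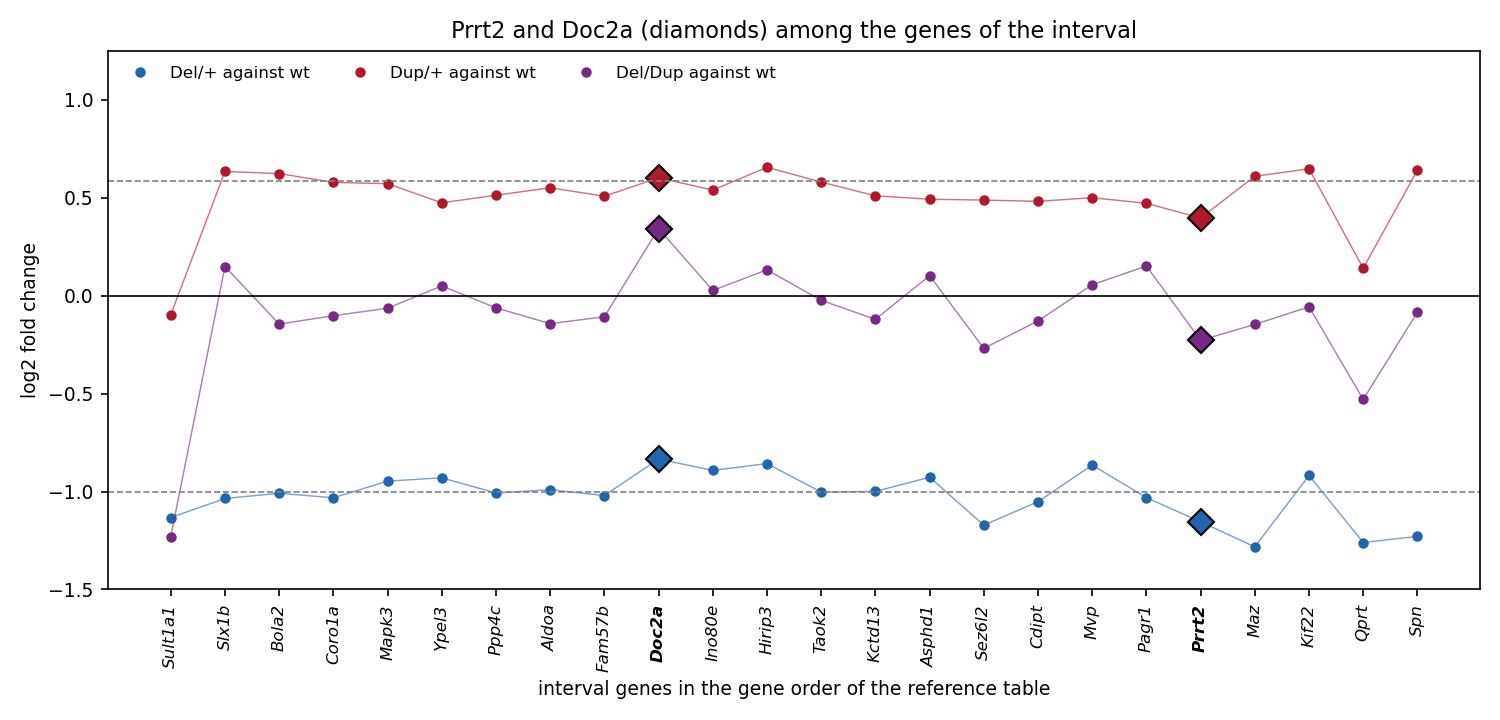
Log2 fold change against wt (y axis) of 24 tested interval genes in their GRCr8 gene order (x axis) for Del/+, Dup/+ and Del/Dup, with Prrt2 and Doc2a as diamonds and dashed lines at -1 and 0.585. Prrt2 is at -1.15, 0.40 and -0.23 and Doc2a at -0.83, 0.60 and 0.34.

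To compare within a library, the level of Prrt2 was taken relative to the median level of the other 26 interval genes, as a difference of log2 CPM. That median rests on the genes of middle level, which by wt mean were Mvp and Hirip3 (17.4 and 20.8 CPM). In Del/+ their log2 fold changes were -0.87 and -0.86, where the median change over the 26 genes was -1.01. In Del/Dup they were 0.06 and 0.13, where it was -0.07. The difference of Prrt2 from the median level was 3.06 ± 0.117 (SD, n = 6) in wt, 2.77 ± 0.065 (n = 4) in Del/+, 2.88 ± 0.049 (n = 5) in Dup/+ and 2.71 ± 0.070 (n = 4) in Del/Dup. All 4 Del/+ and all 4 Del/Dup libraries lay below the lowest wt library, as did 3 of 5 Dup/+ libraries. By a two-sided exact permutation test, adjusted over the 9 tests of this kind, Prrt2 was lower relative to that median level in Del/+ by -0.29 (p = 0.00952, adjusted p = 0.0429) and in Del/Dup by -0.34 (p = 0.00952, adjusted p = 0.0429), and the difference of -0.18 in Dup/+ missed the threshold (p = 0.0195, adjusted p = 0.0584). The Dup/+ test passed without wt replicate 4 (exact adjusted p = 0.0238), Dup/+ replicate 1 or Dup/+ replicate 2 (exact adjusted p = 0.0429 for each). The size depended on the yardstick. With each gene first centred on its own mean, a setting added after seeing the data, the exact permutation differences were -0.17 in Del/+, -0.15 in Dup/+ and -0.17 in Del/Dup, each with an adjusted p of 0.0429, and with the mean in place of the median they were -0.13, -0.12 and -0.14, each with an adjusted p of 0.0943. With any of 13 libraries left out (each Del/+ and Del/Dup library, and each wt library but replicate 4) the exact adjusted p of the Del/+ and Del/Dup tests lay between 0.0536 and 0.0714, where fewer libraries also leave fewer splits and a larger smallest p, and with a library left out the differences stayed between -0.33 and -0.26 in Del/+ and between -0.38 and -0.31 in Del/Dup.

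Doc2a relative to the same genes was -0.996 ± 0.249 (SD) in wt, -0.964 ± 0.318 in Del/+, -0.966 ± 0.284 in Dup/+ and -0.767 ± 0.270 in Del/Dup. The groups overlapped, and the exact permutation differences from wt of 0.03, 0.03 and 0.23 did not pass (adjusted p = 0.857, 0.857 and 0.321). The Del/Dup value was 0.12 without Del/Dup replicate 2. With the mean of the other genes, the difference was 0.19 in Del/+, 0.09 in Dup/+ and 0.44 in Del/Dup (exact permutation, adjusted p = 0.461, 0.623 and 0.0943). With each gene first centred on its own mean, it was 0.15, 0.06 and 0.40 (exact permutation, adjusted p = 0.595, 0.734 and 0.137). Set directly against Prrt2, Doc2a was higher by 0.57 in Del/Dup than in wt (exact permutation p = 0.0381, adjusted p = 0.0857), by 0.32 in Del/+ (adjusted p = 0.300 by the exact test) and by 0.21 in Dup/+ (adjusted p = 0.373 by the exact test). None of these 3 passed, with 2 of 4 Del/Dup libraries beyond the wt range. The Del/+ value was 0.20 without Del/+ replicate 2, and the Dup/+ value 0.13 without wt replicate 1. The smallest p this test can give is 0.00476 with 4 against 6 libraries and 0.00216 with 5 against 6.

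**Figure D4:**
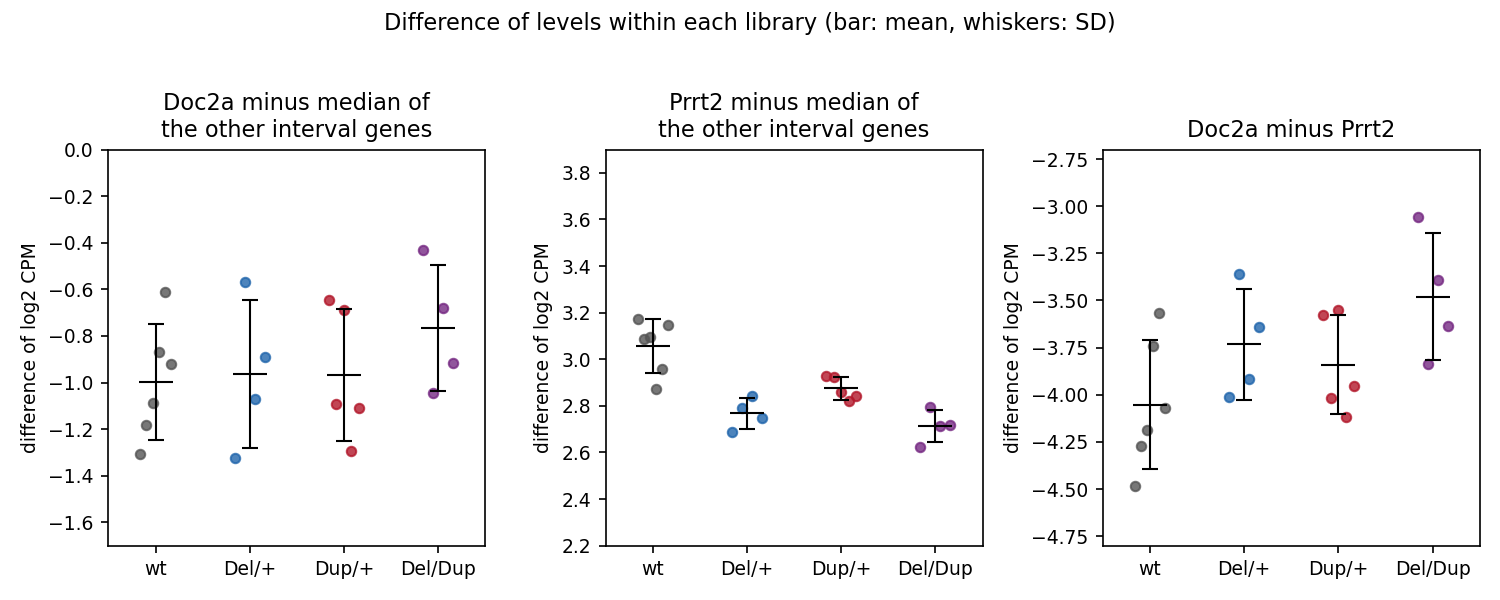
Difference of log2 CPM within each library (y axis, which does not start at 0) between Doc2a or Prrt2 and the median of the other 26 interval genes, and between Doc2a and Prrt2, by group, with the mean (bar) and SD (whiskers). Prrt2 runs from 2.87 to 3.17 in wt and from 2.62 to 2.80 in Del/Dup, and the Doc2a groups overlap.

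Over the 19 libraries, the genes whose log2 CPM was most like that of Prrt2 were Cdipt, Aldoa and Taok2 inside the interval (Pearson r = 0.989, 0.982 and 0.982). For Doc2a these were Asphd1, Hirip3 and Ypel3 (r = 0.915, 0.890 and 0.888). Outside the interval the closest to Prrt2 were AABR07070225.1, Tgfb1i1 and Rad21l1 (r = 0.934, 0.880 and 0.854), and for Doc2a Rad21l1 and Tgfb1i1 had r = 0.815 and 0.804. These values are a description over libraries that share genotype and scaling. Between Prrt2 and Doc2a r was 0.816 over all libraries and 0.0989 once the group means were removed.

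The paralog Doc2b (ENSRNOG00000060054) came nearest to a call among the 7 genes outside the interval in Del/+. Its level ran from 21.7 through a median of 25.7 to 29.1 CPM in wt, and was 20.6, 18.8, 19.4 and 23.5 CPM in Del/+, 24.9, 24.1, 24.2, 29.1 and 26.9 CPM in Dup/+, and 20.4, 25.7, 22.7 and 24.9 CPM in Del/Dup. Del/+ replicates 1 to 3 lay below the wt range and replicate 4 inside it. Against wt this came to -0.32 on the log2 scale (SE 0.0890, 95% interval -0.50 to -0.13), which was not called by edgeR (adjusted p = 0.0865) and was called by DESeq2 (adjusted p = 0.0244). With the multi-mapped share in the fit it was -0.12 (adjusted p = 0.746), and the Del/+ library inside the wt range is the one with a low share. Between Del/+ and Dup/+ the Doc2b libraries did not overlap, and the value of -0.33 was not called (adjusted p = 0.121) and was -0.14 with the term (adjusted p = 0.758). In Dup/+ the value was 0.01 (95% interval -0.16 to 0.18). In Del/Dup it was -0.13 (adjusted p = 0.469), and the term turned its sign (0.13, adjusted p = 0.794).

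Among the SNARE genes, Snap25 (ENSRNOG00000006037) ran from 1340 through a median of 1490 to 1730 CPM in wt. It was 1799, 1904, 1841 and 1683 CPM in Del/+, 1600, 1249, 1573, 1466 and 1570 CPM in Dup/+, and 1737, 1388, 1600 and 1664 CPM in Del/Dup. Del/+ replicates 1 to 3 lay above the wt range and replicate 4 inside it. Its log2 difference from wt in Del/+ was 0.25 (SE 0.0827, 95% interval 0.07 to 0.42) and did not pass (adjusted p = 0.125), and that between Del/+ and Dup/+ was 0.28 (adjusted p = 0.166), where the groups did not overlap. Neither was called by DESeq2. With the term for the multi-mapped share they were 0.14 and 0.17 (adjusted p = 0.699 and 0.659). In Dup/+ and Del/Dup against wt the values were -0.03 and 0.07, the latter -0.07 with the term.

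Stx1a (ENSRNOG00000029165), the syntaxin of the target membrane, ran from 86.1 through 92.0 to 108 CPM in wt and lay between 83.2 and 98.2 CPM in all Del/+ and Dup/+ libraries. Del/Dup fell apart into replicates 2 and 4 at 141 and 125 CPM and replicates 3 and 5 at 91.6 and 81.8 CPM, a coefficient of variation of 25.3% against 4.00% to 8.64% in the other groups. The Del/Dup value of 0.22 on the log2 scale (95% interval 0.00 to 0.44, adjusted p = 0.308) rested on that pair and was 0.08 without replicate 2. In Del/+ and Dup/+ the values were -0.05 and -0.11 with adjusted p = 0.842 and 0.807, the former -0.03 with the term for the multi-mapped share.

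Vamp2 (ENSRNOG00000006989), the vesicle SNARE, and Syt1 (ENSRNOG00000006426), the calcium sensor it works with, overlapped with wt in each carrier group. Vamp2 ran from 443 to 506 CPM in wt, from 397 to 480 CPM in Del/+, from 434 to 467 CPM in Dup/+ and from 452 to 499 CPM in Del/Dup, with log2 fold changes against wt of -0.08, -0.10 and -0.03. For Syt1 the wt libraries spanned 1800 to 2030 CPM, Del/+ 1780 to 1970 CPM, Dup/+ 1800 to 1930 CPM and Del/Dup 1740 to 1830 CPM, and the log2 fold changes were -0.02, -0.04 and -0.10. The 95% interval of the Syt1 change was -0.11 to 0.06 in Del/+ and -0.11 to 0.04 in Dup/+, the narrowest of the 9 genes. None of these 6 values was called, the smallest adjusted p being 0.229 for Syt1 in Del/Dup. With the term for the multi-mapped share Vamp2 was at -0.28 in Del/+ and -0.30 in Del/Dup (adjusted p = 0.0696 and 0.201), and Syt1 at -0.11 and -0.21 (adjusted p = 0.460 and 0.288), also not called.

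The priming factor Unc13a (ENSRNOG00000018452) ran from 282 through 319 to 349 CPM in wt and was 269, 253, 287 and 289 CPM in Del/+. Replicates 3 and 4 lay inside the wt range. Its log2 fold change of -0.21 (SE 0.0730, 95% interval -0.36 to -0.05) was not called (adjusted p = 0.143), nor were -0.09 in Dup/+ and -0.15 in Del/Dup (adjusted p = 0.736 and 0.303). With the term the Del/+ and Del/Dup values were -0.13 and -0.06 (adjusted p = 0.693 and 0.910). Rims1 (ENSRNOG00000011000), the active zone scaffold, spanned 269 to 326 CPM in wt, 254 to 300 CPM in Del/+, 266 to 305 CPM in Dup/+ and 269 to 322 CPM in Del/Dup, with log2 fold changes of -0.13, -0.08 and -0.03 (adjusted p = 0.288, 0.719 and 0.849). With the term Rims1 was at -0.24 in Del/+ and -0.18 in Del/Dup (adjusted p = 0.343 and 0.611).

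Of the 7 genes outside the interval, 0 were called by edgeR in any of the 6 comparisons. At an unadjusted p under 0.05 there were 3 in Del/+ against wt (Doc2b, Snap25 and Unc13a), where 18.4% of all genes passed this threshold, 0 in Dup/+ (8.94% of all genes) and 3 in Del/Dup (Stx1a, Syt1 and Unc13a; 16.2% of all genes). There were 2 between Del/+ and Dup/+ (13.5%), 1 between Del/Dup and Del/+ (8.48%) and 2 in the slope (11.5%). DESeq2 called 1 of the 7, Doc2b in Del/+, where it called 6.94% of the genes to which it gave an adjusted p, and 0 in the other comparisons, where it called 0.446% in Dup/+, 1.1% in Del/Dup, 1.56% between Del/+ and Dup/+, 0.53% between Del/Dup and Del/+ and 1.14% in the slope. Their median log2 fold change was -0.08 in Del/+, -0.08 in Dup/+ and -0.03 in Del/Dup, beside 0.00 over all tested genes in each. In Dup/+ no 95% interval of these 7 reached beyond -0.32 or 0.18, and in Del/+ none beyond -0.50 or 0.42. From low to high, the mean levels ran Del/+, Del/Dup, wt, Dup/+ for Doc2b and Dup/+, wt, Del/Dup, Del/+ for Snap25. Del/+ was also lowest for Unc13a and Rims1, Dup/+ for Stx1a and Vamp2, and Del/Dup for Syt1. In each of these orders the libraries of neighbouring groups overlapped.

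The wider release machinery was taken as 85 further genes in 5 lists, of which 82 were tested. None of the 82 was called by edgeR in Del/+, Dup/+ or Del/Dup against wt. At an unadjusted p under 0.05 there were 26 in Del/+ (9 higher, 17 lower), 12 in Dup/+ and 21 in Del/Dup, beside 18.4%, 8.94% and 16.2% of all genes, and DESeq2 called 10, 1 and 3, beside 6.94%, 0.446% and 1.1% of all genes with an adjusted p. The median log2 fold change over the 82 was -0.04, -0.03 and -0.05. In the slope per copy edgeR called 1 of the 82, where it called 0.576% of all genes, and DESeq2 called 2, Erc2 and Syndig1l, where it called 1.14%. The edgeR call was Syndig1l (0.57 per copy, SE 0.128, adjusted p = 0.0404), a member of the dispanin family to which Prrt2 belongs, of low level here at 1.62 to 3.59 CPM in wt and 3.48 to 5.78 CPM in Dup/+. It is 1 of the 9 tested relatives and channel partners of Prrt2, and its 0.87 in Dup/+ against wt did not pass (adjusted p = 0.199).

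By role, the 21 tested SNAREs and fusion regulators had a median of -0.01 in Del/+, and the smallest adjusted p belonged to Cplx2, a complexin that clamps and promotes fusion (-0.33, adjusted p = 0.0605). Its 4 Del/+ libraries, from 865 to 1110 CPM, all lay below the wt range of 1160 to 1330 CPM. Among the 16 calcium sensors and C2 domain proteins this was Cadps2, a dense core vesicle priming factor (0.39, adjusted p = 0.0669), and among the 20 genes of the active zone and priming Rimbp2, which links Rims1 to calcium channels (-0.33, adjusted p = 0.0914), at 113 to 121 CPM in Del/+ against 137 to 162 CPM in wt. Of the 16 synaptic vesicle proteins it was Slc17a6, a vesicular glutamate transporter (0.81, adjusted p = 0.0718), and of the Prrt2 relatives Prrt3 (-0.19, adjusted p = 0.114). DESeq2 called each of these 5 in Del/+, and Vamp4, Syt2, Ppfia4, Syn2 and Slc17a7 with them, while 10 of the 82 had no adjusted p there. In the same order, the Del/+ medians of the 5 lists were -0.01, -0.04, -0.06, -0.03 and -0.20. At an unadjusted p under 0.05 the lists held 3, 4, 11, 5 and 3 genes, beside 18.4% of all genes. Of the 11 active zone genes 8 were lower and 3 higher, and the 3 Prrt2 relatives were lower.

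In Dup/+ the smallest adjusted p of a list belonged to Syt7 (-0.26) among the calcium sensors, Rab3gap1 (0.09) in the active zone list, Syn1 (-0.18) among the vesicle proteins and Syndig1l among the Prrt2 relatives, at adjusted p = 0.269, 0.467, 0.534 and 0.199. In Del/Dup it belonged to Nsf (-0.17), Syt10 (0.42), Rims3 (0.63), Slc17a7 (-0.24) and Scn8a (-0.19), at adjusted p = 0.142, 0.174, 0.152, 0.139 and 0.266. DESeq2 called Syndig1l in Dup/+ and Nsf, Rims3 and Slc17a7 in Del/Dup. Between Del/+ and Dup/+ edgeR called 0 of the 82 (21 at an unadjusted p under 0.05, beside 13.5% of all genes), the nearest being Syndig1l (-1.10, adjusted p = 0.0529), and DESeq2 called 4, beside 1.56% of all genes. Between Del/Dup and Del/+ both called 0 (DESeq2 0.53% of all genes), with 6 at an unadjusted p under 0.05, beside 8.48% of all genes.

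**Figure D5:**
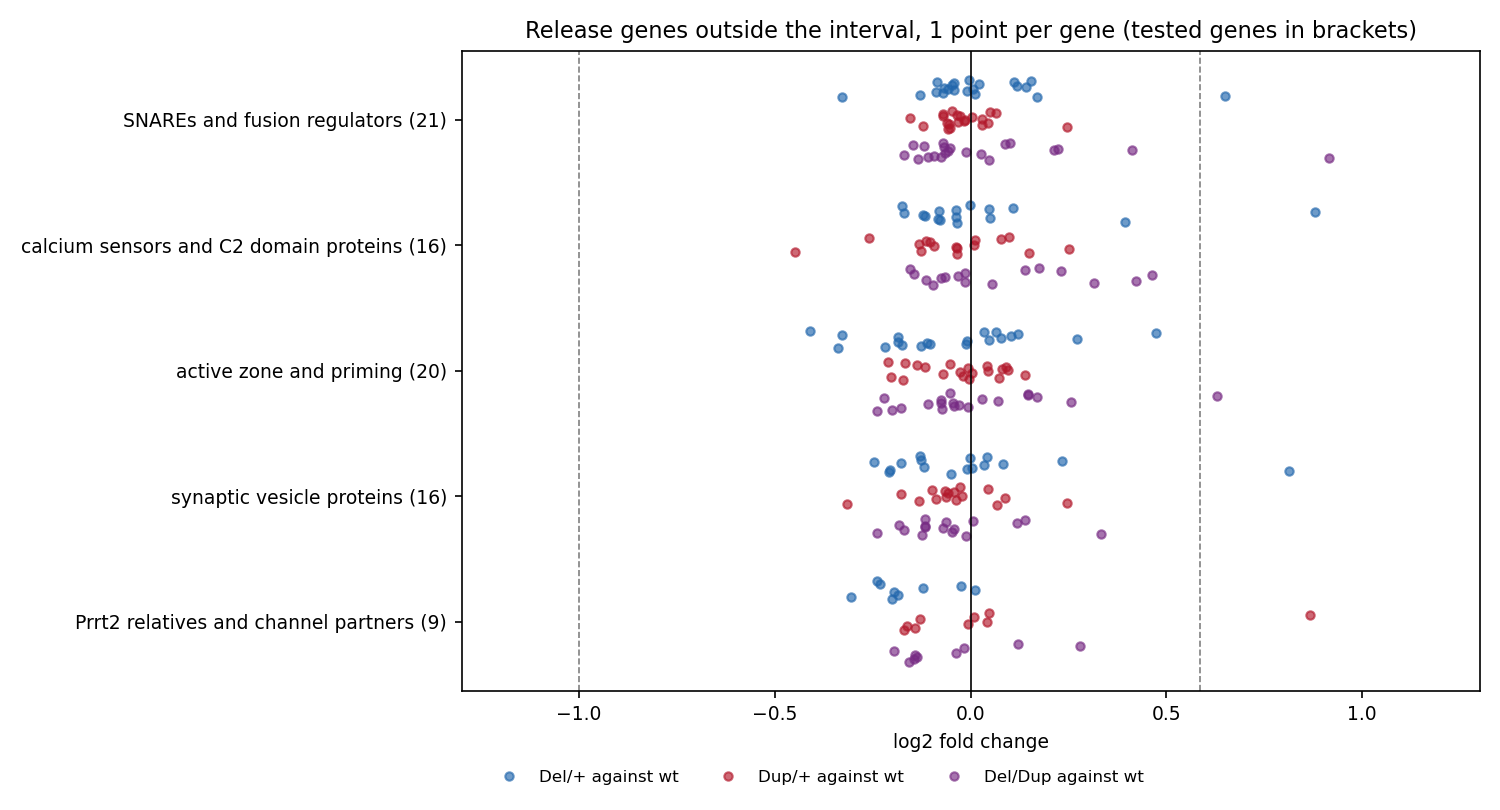
Log2 fold change against wt (x axis) of the 82 tested release genes outside the 9, 1 point per gene, in 5 lists (y axis, with the number tested) and 3 carrier groups, with dashed lines at -1 and 0.585. The list medians lie between -0.20 and -0.01, and no point is called.

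Markers of cell types were summed per library beside these values. The hippocampus held high neuron marker sums in every library, from 2290 CPM in a Del/Dup library to 3190 CPM in a wt library (2730 to 3190 CPM in wt against 2500 to 2790 CPM in Del/+), with none of the 6 markers at 0 reads. The 4 oligodendrocyte markers ran from 4400 to 5730 CPM in wt and 5230 to 7880 in Del/+, and the 4 choroid plexus markers from 2.73 to 32.6 CPM in wt but up to 1220 CPM in Del/+, 389 CPM in Dup/+ and 1170 CPM in Del/Dup. Blood markers did not overlap between wt (117 to 160 CPM) and Dup/+ (180 to 243 CPM), and 3 of the 5 tested blood entries were called higher in Dup/+, where 0.214% of all genes were. In no other marker list did edgeR make a call against wt. The share of all genes with an unadjusted p under 0.05 was 18.4% in Del/+, 8.94% in Dup/+ and 16.2% in Del/Dup. At an unadjusted p under 0.05, 3 of 6 neuron markers were lower and all 4 oligodendrocyte and all 4 choroid plexus markers higher in Del/+, and all 4 choroid plexus and 3 oligodendrocyte markers were higher in Del/Dup, alongside 2 neuron markers that were lower. In Dup/+, 2 choroid plexus markers and 1 oligodendrocyte marker were higher at that threshold. Of the 4 microglia markers 2 were lower in Del/+, 1 in Dup/+ and 1 in Del/Dup, and 1 astrocyte and 1 vascular marker were lower in each of Del/+ and Del/Dup. Astrocyte, microglia and vascular sums overlapped between wt and each carrier group. Of the vascular markers 1 was at 0 reads in a library or more of each group, Cldn5 had too few reads to be tested, and Pecam1 was not in the files. The part of these shifts in the values of the 9 genes was not tested.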

How the data were processed

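Hippocampal RNA of the 19 rats was made into libraries with a stranded total RNA kit and sequenced as single-end reads of 50 bases. The sources differ on whether ribosomal RNA was removed or polyadenylated RNA selected. The authors aligned the reads with HISAT2 to the rn6 genome with Ensembl release 96 and deposited raw counts per gene made with HTSeq, whose strand setting is not given in the sources used here, so reads of overlapping antisense genes may be mixed. The deposited counts are whole reads with no normalization, and 5 summary lines per file were kept out of totals and tests, other than the multi-mapped line, whose share of reads was computed per library. No other column was left out.

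The 9 genes, the release lists and the marker lists were chosen with earlier results of these data known. Genes that passed edgeR's default expression filter (15440) were fitted over all 19 libraries and 4 groups with edgeR 4.0.16 in R 4.3.3 (TMM scaling, quasi-likelihood F test, Benjamini-Hochberg adjustment over the 15440 genes, threshold 0.05), and the slope was fitted on the number of copies. SE and 95% intervals come from the same fit, and CPM values from TMM-scaled totals, with a prior count of 2 on the log2 scale. Prrt2 and Doc2a relative to the other interval genes entered 9 exact permutation tests, two-sided. From each release list the called genes, up to 5 per comparison, were to be named, or without a call the gene of smallest p, and the 3 genes inside and 3 outside the interval with the highest r to Prrt2 and Doc2a. Genes named for calls by DESeq2 fall outside this rule, and 2 genes that it picks are not reported here. Library totals were 16191192 to 38760645 reads in genes. The fits were tested on simulated data. Alternatives were other scalings, no expression filter, DESeq2 1.42.0, wt replicate 5 counted as Dup/+, a replicate block, a term for multi-mapped share over 55%, only the 2 groups compared, the mean in place of the median, each library left out, and 2 settings added after seeing the data.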

Additional observations from a re-analysis of the deposited data

Results flagged for a closer look

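Of 52 groups of 4 to 6 libraries checked for a single library far from the rest, 2 stood out, where chance gives about 1 in 20. Prrt2 in Del/Dup replicate 3 was at 145.4 CPM, with the nearest other library of that group at 133.7 CPM, a gap of 0.842 of the whole range. Without it the Prrt2 difference from wt was -0.26 and was called (edgeR adjusted p = 0.0341). Vamp2 in Del/+ replicate 4 was at 396.9 CPM, with the nearest other at 477.3 CPM, a gap of 0.967 of the range. Without it the Vamp2 difference between Del/+ and wt was -0.01. This library is also the only Del/+ library of low multi-mapped share.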

How the results depend on the processing

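Doc2a was the least deeply counted of the 9 genes, with 126 to 444 reads per library, and what sets its spread was not tested. The multi-mapped share is nearly confounded with Del/Dup and Del/+, so that the term for it rests on Del/+ replicate 4. The calls of Prrt2 in Del/+ against wt, Del/+ against Dup/+ and Del/Dup against Del/+, and of both genes in the slope, were kept in each alternative run. The number of the 9 genes called in Del/+ against wt was 2 and became 1, by loss of Doc2a, with library size alone (adjusted p = 0.0593), wt replicate 5 as Dup/+ (0.0603), the replicate block (0.0899), the multi-mapped term (0.355) and only the 2 groups compared (0.0504), and ran from 1 to 2 with a library left out. It became 3 with DESeq2, which added Doc2b. In Dup/+ against wt it became 0 with wt replicate 5 as Dup/+. In Del/Dup against wt it was 0 and became 1 with DESeq2, and ran from 0 to 1 with a library left out. In Del/+ against Dup/+ it became 1 with the multi-mapped term. In Del/Dup against Del/+ it became 1 with the replicate block, with only the 2 groups (Doc2a adjusted p = 0.0723) and with the libraries of high share alone, and ran from 1 to 2 with a library left out. The causes were not tested.

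Prrt2 relative to the other interval genes was -0.132 in Del/+ and -0.135 in Del/Dup with the mean, and in Dup/+ -0.187 (exact adjusted p = 0.0476) with wt replicate 5 as Dup/+ and -0.151 with centred genes. With a library left out, the Del/+ value ran from -0.326 to -0.263, the Dup/+ value from -0.218 to -0.157 and the Del/Dup value from -0.381 to -0.314. Doc2a relative to them had a Del/+ value from -0.100 to 0.152, a Dup/+ value from -0.0501 to 0.112 and a Del/Dup value from 0.117 to 0.3204. Relative to Prrt2 these values ran from 0.196 to 0.417, from 0.125 to 0.307 and from 0.431 to 0.692.

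The labels do not say whether the replicate numbers pair the rats. Deviations of 24 same-number pairs correlated from -0.335 to 0.278 and those of 110 other pairs from -0.367 to 0.412. In all, 1 library was closest to its own number. With the block the Doc2a value in Del/+ was -0.83 and that in Del/Dup against Del/+ 1.15 (adjusted p = 0.0871), and the signs turned for Doc2b in Dup/+ (-0.0342) and Rims1 in Del/Dup against wt (0.0062).

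The other signs that turned were also those of uncalled values. With wt replicate 5 as Dup/+ these were Stx1a (-0.001) and Vamp2 (-0.0041) in Del/+ against Dup/+. With the multi-mapped term they were Doc2b (0.135) and Snap25 (-0.067) in Del/Dup against wt, Vamp2 (-0.186) and Syt1 (-0.0732) in Del/+ against Dup/+, Vamp2 in Del/Dup against Del/+ (-0.0165), and the slopes of Stx1a (0.0256) and Vamp2 (0.001). With the libraries of high share alone Vamp2 in Del/Dup against Del/+ was -0.0117. With a library left out, Syt1 ran from -0.0412 to 0.0079 in Del/+, -0.0023 to 0.0445 in Del/+ against Dup/+ and -0.0188 to 0.001 in the slope, Doc2b from -0.0358 to 0.0514 and Snap25 from -0.0665 to 0.0264 in Dup/+, Rims1 from -0.0733 to 0.0181 in Del/Dup against wt and -0.0068 to 0.0339 in the slope, and, in Del/Dup against Del/+, Vamp2 from -0.0199 to 0.0697 and Unc13a from -0.0106 to 0.102.

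Counts over all genes moved more. They were 119 in Del/+ (72 to 641 over the alternatives, 46 to 337 with a library left out), 42 in Dup/+ (12 to 77, 27 to 44), 14 in Del/Dup (3 to 179, 2 to 216), 121 in Del/+ against Dup/+ (51 to 262, 60 to 194), 27 in Del/Dup against Del/+ (22 to 74, 22 to 34) and 89 in the slope (43 to 169, 48 to 124).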

Other observations

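Del/Dup replicates 2 and 4, the high pair for Stx1a, also held the highest Doc2a levels of their group, 15.7 and 12.7 CPM, and wt replicate 5, the highest wt library for Stx1a at 108 CPM, was highest for Doc2a as well at 12.9 CPM. These libraries were picked after their values were seen.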
